A study of Rattus norvegicus with 12 samples.

Results

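The 8 genes described here encode the natriuretic peptides, their receptors and 2 proteases that cut the peptide precursors. They are Nppa, Nppb, Nppc, Npr1, Npr2, Npr3, Corin and Furin, chosen by gene symbol from the 32545 genes of the table, and all 8 had a mean high enough to be among the 13910 genes tested. Neonatal Sprague–Dawley rats received a fistula between the abdominal aorta and the inferior vena cava, which brings volume overload (VO), or a sham operation on postnatal day 1 (P1). RNA of the left (LV) and right (RV) ventricular free walls was sequenced at P7, which gave 12 libraries, 3 each of VO LV, VO RV, sham LV and sham RV. The labels do not say whether a library came from 1 or several rats or whether an LV and an RV came from the same rat, so p values measure the spread between these libraries.

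Atrial (ANP) and B-type (BNP) natriuretic peptides are hormones that heart muscle releases when it is stretched, and they lower blood volume and pressure. Both bind Npr1, a receptor that makes cyclic GMP, whereas the C-type peptide (CNP) signals through the related receptor Npr2, and Npr3 binds all of these peptides and removes them. Corin, a protease on the surface of cardiomyocytes, cuts the ANP precursor, and Furin, a protease of the secretory pathway, is known to cut the BNP and CNP precursors. Nppa is made by both atria and ventricles before birth, and after birth its transcript falls in the ventricles while the atria keep a high level.

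The libraries held 14121713 to 16871371 reads assigned to genes. Atrial markers were high in 2 RV libraries, sham RV replicate 1 and VO RV replicate 2, called atrial-rich here. Sln, an atrial regulator of the calcium pump, was 97.7 FPKM (fragments scaled by gene length and library depth) in the former and 388 FPKM in the latter, and at most 0.678 FPKM in the other 10 libraries. Bmp10, an atrial growth factor, was 12.6 and 72.4 FPKM in these 2 libraries and at most 0.152 FPKM elsewhere, and Myl7, the atrial myosin light chain, was 138 and 463 FPKM against 21.4 to 75.5 FPKM. Of the 7 markers, Myl4 (191 FPKM), Kcna5 (2.31) and Nr2f1 (2.02) were not raised in sham RV replicate 1 and lay within the range of the other 10 libraries, whereas all 7 were highest in VO RV replicate 2. The summed level of all 7 atrial markers was 193 to 308 FPKM (sham) and 275 to 318 FPKM (VO) in the LV, and 158 to 453 FPKM (sham) and 182 to 1541 FPKM (VO) in the RV. The 6 ventricular cardiomyocyte markers, among them Myl2 and Myh7, summed to 5341 FPKM in VO RV replicate 2 and 7360 FPKM in sham RV replicate 1, the 2 lowest sums, with 8825 FPKM the highest among the RV libraries. Fibroblast markers had their 2 highest sums in the same libraries, 4321 and 3269 FPKM, and macrophage markers were highest in VO RV replicate 2 (52.0 FPKM). The part of these cell types in the values of the members was not tested. Y-linked transcripts summed to 0 FPKM in all 3 VO LV libraries but reached 64.1 FPKM in sham LV, 64.2 in sham RV and 56.0 in VO RV. They were high in replicates 1 and 2 of both sham groups and in VO RV replicate 3. The sex of the rats therefore cannot be told apart from VO in part of the LV comparison. Sex was also unbalanced in the RV response and between VO LV and VO RV.

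Nppa and Nppb lie side by side on chromosome 5, at chr5:164808323-164809705 and chr5:164796185-164797531 in the deposited table, both on the plus strand and 10791 bases apart. The genome build of these positions is not given in the sources used here. The 250 bases before the start of each gene are shown because these neighbours are the 2 most abundant members and both are textbook targets of GATA factors. The sequences are from RefSeq, build GRCr8, at chr5:163711934-163712183 for Nppa and chr5:163699758-163700007 for Nppb, plus strand, with capitals marking GATAA (the core bound by GATA factors), CATTCC (bound by TEAD factors), AAGTG (part of the site of Nkx2-5) and TATAAA, on either strand.
Nppa: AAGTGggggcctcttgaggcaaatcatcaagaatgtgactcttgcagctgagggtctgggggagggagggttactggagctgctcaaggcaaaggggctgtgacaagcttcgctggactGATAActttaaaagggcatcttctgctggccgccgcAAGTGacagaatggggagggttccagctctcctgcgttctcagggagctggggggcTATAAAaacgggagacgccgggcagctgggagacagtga
Nppb: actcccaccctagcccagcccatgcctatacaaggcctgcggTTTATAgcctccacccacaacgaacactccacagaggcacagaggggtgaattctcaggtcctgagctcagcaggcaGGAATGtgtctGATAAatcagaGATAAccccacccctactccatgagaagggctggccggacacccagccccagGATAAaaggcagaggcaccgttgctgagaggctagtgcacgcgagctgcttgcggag
Counted from the gene start, the Nppb window held GATAA 3 times, at −120, −109 and −57, and the Nppa window held it once, at −131. Of 33469 RefSeq windows of this length, 23.5% held GATAA, 12.1% CATTCC, 40.6% AAGTG and 12.9% TATAAA. A strict CArG box, the site of serum response factor, is CC, then 6 bases of A or T, then GG. It was found in 1.497% of all windows and in none of the 6 members with a window (Nppa, Nppb, Nppc, Npr1, Npr3 and Corin). Near matches were not counted, and the Nppa window holds ctttaaaagg, which has CT in place of CC. These letter matches are descriptions and were not tested as binding sites. Of the other 4 windows, the one of Nppc held TATAAA at −48 and those of Npr1, Npr3 and Corin held none of these letters.

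The members spanned almost the whole range of expression in these walls. Nppa, the ANP gene, had a mean of 789 FPKM over the 12 libraries and ranked 86 among all genes, and Nppb, the BNP gene, had 219 FPKM and ranked 322. Furin followed at 38.1 FPKM, then Npr1 at 18.6, Npr2 at 12.4, Npr3 at 7.36, Corin at 5.30 and Nppc, the CNP gene, at 1.07 FPKM.

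**Figure D1:**
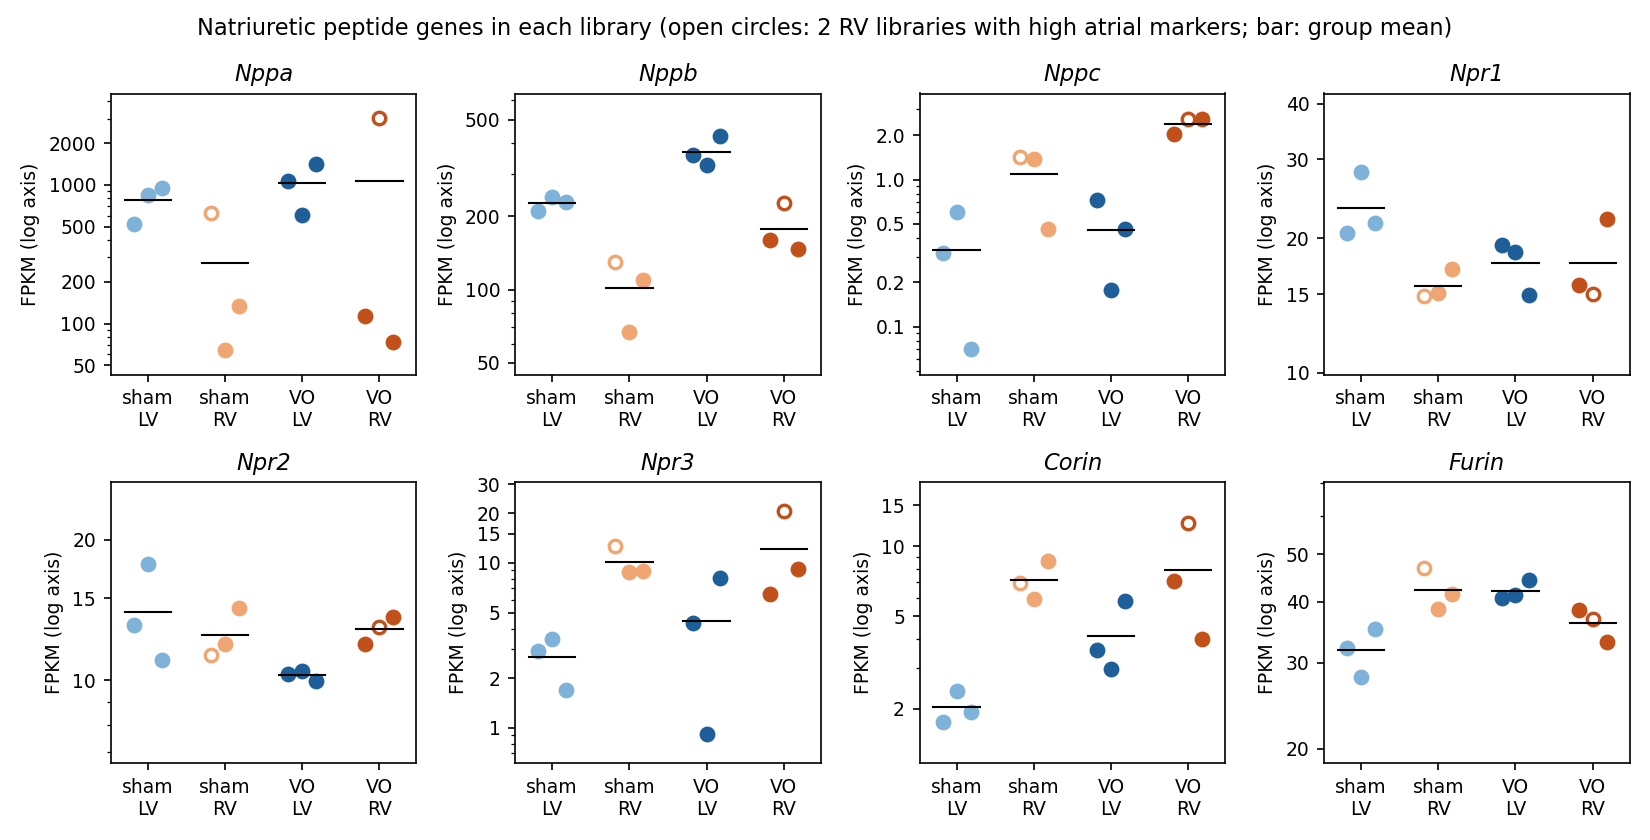
FPKM of each gene (log axis) in the 3 libraries of each group, with the group mean as a bar and open circles for the 2 RV libraries with high atrial markers. Nppb stood higher in VO than in sham in both ventricles, whereas Nppa in the RV lay between 64.2 and 133 FPKM in 4 libraries and at 625 and 3037 FPKM in the other 2.

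Nppb was an LV-enriched transcript whose values were also higher with VO. In sham hearts it was 211, 240 and 229 FPKM in LV replicates 1 to 3 and 130, 67.1 and 109 FPKM in RV replicates 1 to 3. In VO hearts it was 357, 325 and 427 FPKM in the LV and 160, 226 and 147 FPKM in the RV. The groups were ordered from sham RV (102 ± 31.9 FPKM, standard deviation (SD), n = 3) to VO RV (178 ± 42.3), sham LV (227 ± 14.5) and VO LV (370 ± 52.2), and of these neighbours only VO RV and sham LV overlapped. Between the sham ventricles, Nppb was 2.29-fold higher in the LV (log2 fold change 1.198, standard error (SE) 0.23, limma adjusted p = 0.0325). It was called there, a call being an adjusted p under 0.05 with a fold change over 1.3. Nppb and Corin were the 2 of the 8 members called in this comparison, against 3.86% of all tested genes (1.51% higher and 2.35% lower in the LV), and 6 members passed at an unadjusted p under 0.05, against 17.8%. Without sham RV replicate 1 the Nppb difference was 1.39 (limma adjusted p = 0.122), and without both atrial-rich libraries it was also 1.39 (limma adjusted p = 0.0600). With all genes above 0 tested, the limma adjusted p was 0.0616. The call was kept in 7 of the 12 fits that each left out 1 library, and it was lost without sham LV replicate 1 or 2, sham RV replicate 1 or 2, or VO LV replicate 2, with adjusted p values up to 0.122 from limma.

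In response to VO, all 3 VO libraries lay above all 3 sham libraries for Nppb in each ventricle. The log2 fold change was 0.70 (SE 0.23, 95% confidence interval 0.20 to 1.19) in the LV and 0.83 (0.33 to 1.32) in the RV, and neither was called (limma adjusted p = 0.109 and 0.536; exact two-sided permutation p = 0.1 in each, the smallest that 3 libraries against 3 allow). In the LV, 0 of 8 members were called, against 0.0935% of all tested genes, and 5 members passed both limits at the unadjusted p, against 15.7%. In the RV, 0 of 8 members were called, against 0% of all genes, and 2 members (Nppb and Nppc) passed at the unadjusted p, against 4.91%. The voom fit of the recovered reads also called 0 members in each ventricle and in the average over both. With the level of Y-linked genes as a covariate, the LV response of Nppb was 0.56 (limma adjusted p = 0.411).

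The responses of Nppb in the 2 ventricles differed by −0.13 (LV minus RV, 95% confidence interval −0.83 to 0.57), which leaves room for a difference of either sign. Averaged over both ventricles, a comparison added after the data were seen, Nppb was 1.70-fold higher in VO (log2 fold change 0.76, SE 0.16) and ranked 11 of 13910 genes by p. It was not called (limma adjusted p = 0.574), and 0 of 8 members and 0.0144% of all genes were, with 2 members at the unadjusted p against 1.59%. An exact permutation of the libraries within each ventricle gave p = 0.005 for Nppb, the smallest it can give. Averaged over both operations, Nppb was 2.19-fold higher in the LV (1.13, SE 0.16, limma adjusted p = 0.0262, rank 9). It was the 1 member called there, against 0.0863% of all genes, with 5 members at the unadjusted p against 4.48%. The call was kept in 4 of the 12 fits without 1 library, those without sham RV replicate 1 or 2 or VO RV replicate 2 or 3, and the limma adjusted p reached 0.0825, without sham LV replicate 3. With all genes above 0 tested it was 0.0711.

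**Figure D2:**
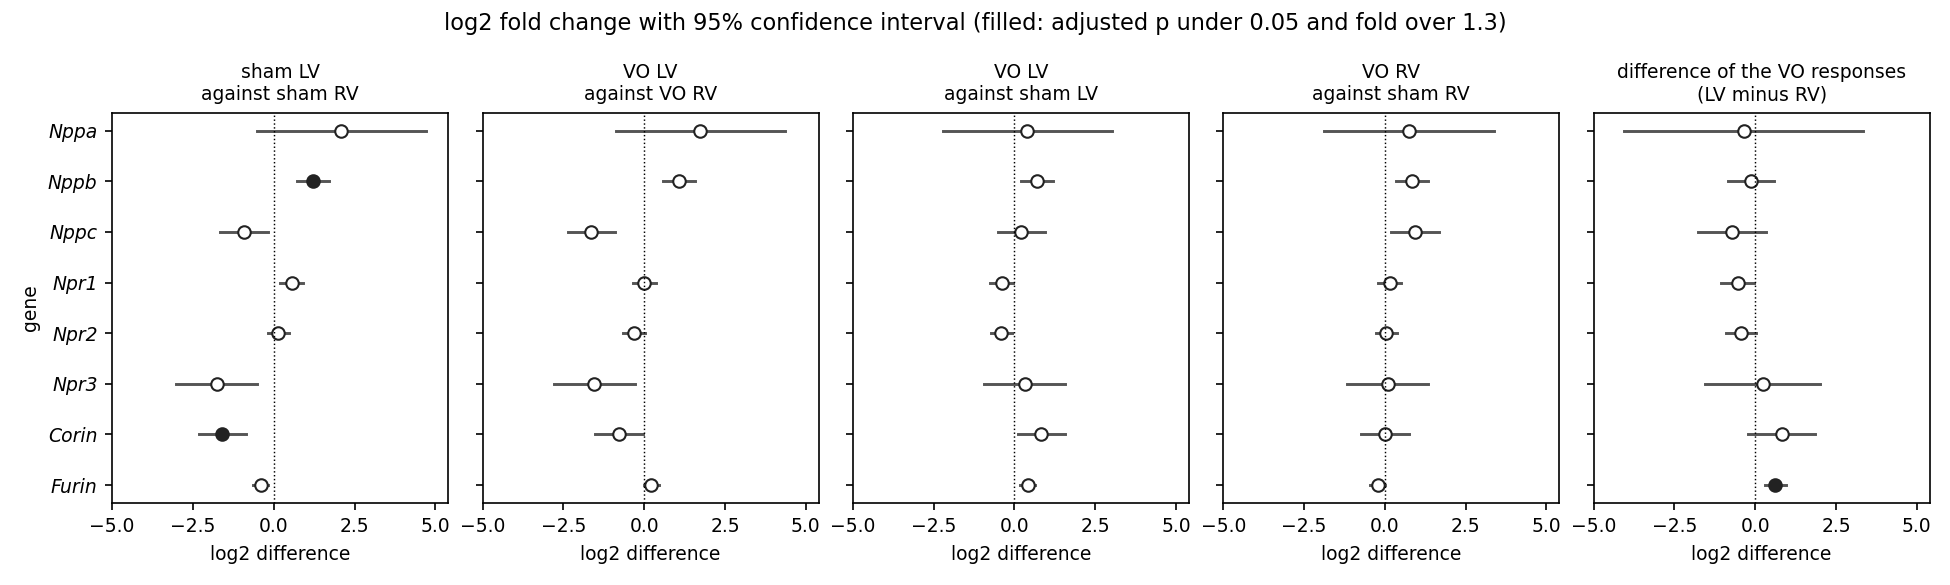
log2 difference of each gene in 5 comparisons, with 95% confidence intervals from limma and filled points for called genes. Nppb and Corin were called between the sham ventricles and Furin in the difference of the VO responses, and the intervals of Nppa were the widest of the 8 genes.

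Nppa was not called in any comparison, and its level in the RV was divided between libraries. It was 519, 844 and 951 FPKM in sham LV and 1073, 610 and 1423 FPKM in VO LV. In the RV it was 625, 64.2 and 133 FPKM in sham and 113, 3037 and 73.3 FPKM in VO. The 2 high RV values, 625 and 3037 FPKM, are those of the libraries with high Sln, Bmp10 and Myl7, and the other 4 RV libraries all lay below every LV library. With all libraries, Nppa was higher in sham LV than in sham RV by a log2 fold change of 2.09 (SE 1.19, limma adjusted p = 0.284).

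Without the 2 atrial-rich RV libraries, the sham LV against sham RV difference of Nppa was 3.004 (SE 0.42, limma adjusted p = 0.0628) and the VO LV against VO RV difference moved from 1.73 (SE 1.19) to 3.42 (0.42, limma adjusted p = 0.0604). Averaged over the operations it was 3.21 (0.30, limma adjusted p = 0.00552) and then passed both thresholds, as against 1.91 (0.84, limma adjusted p = 0.450) with all libraries. With the mean of 4 atrial markers as a covariate in place of leaving libraries out, the sham and VO differences were 3.03 and 3.10 (limma adjusted p = 0.0145 and 0.0195). Leaving out a library with low Nppa in the RV lowered the differences instead, to 1.37 in sham without RV replicate 2 (limma adjusted p = 0.573) and to 1.05 and 0.73 in VO without RV replicate 1 or 3 (limma adjusted p = 0.757 and 0.950). In the 10 libraries without high atrial markers, the 4 RV libraries held 64.2 to 133 FPKM and the 6 LV libraries 519 to 1423 FPKM.

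The response of Nppa to VO was not resolved. In the LV it was 0.39 (95% confidence interval −2.23 to 3.004), with groups that overlapped, and in the RV 0.75 (−1.87 to 3.36). Without the 2 atrial-rich libraries, the RV held 64.2 and 133 FPKM in sham and 113 and 73.3 FPKM in VO, a log2 difference of −0.024 (SE 0.46, limma adjusted p = 0.995). Across the 6 LV libraries, where the atrial marker mean varied little, Nppa and that mean had a Pearson's r of 0.486 (exact permutation p = 0.328) and a Spearman's rho of 0.6 (exact permutation p = 0.242), and both p values were 0.328 when adjusted over these 2 relations. Without the 2 of these 6 libraries farthest from the median of the marker mean, r was 0.951, a value that rests on very few libraries. The 6 RV libraries fell into separate clusters, so the relation was not tested there.

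**Figure D3:**
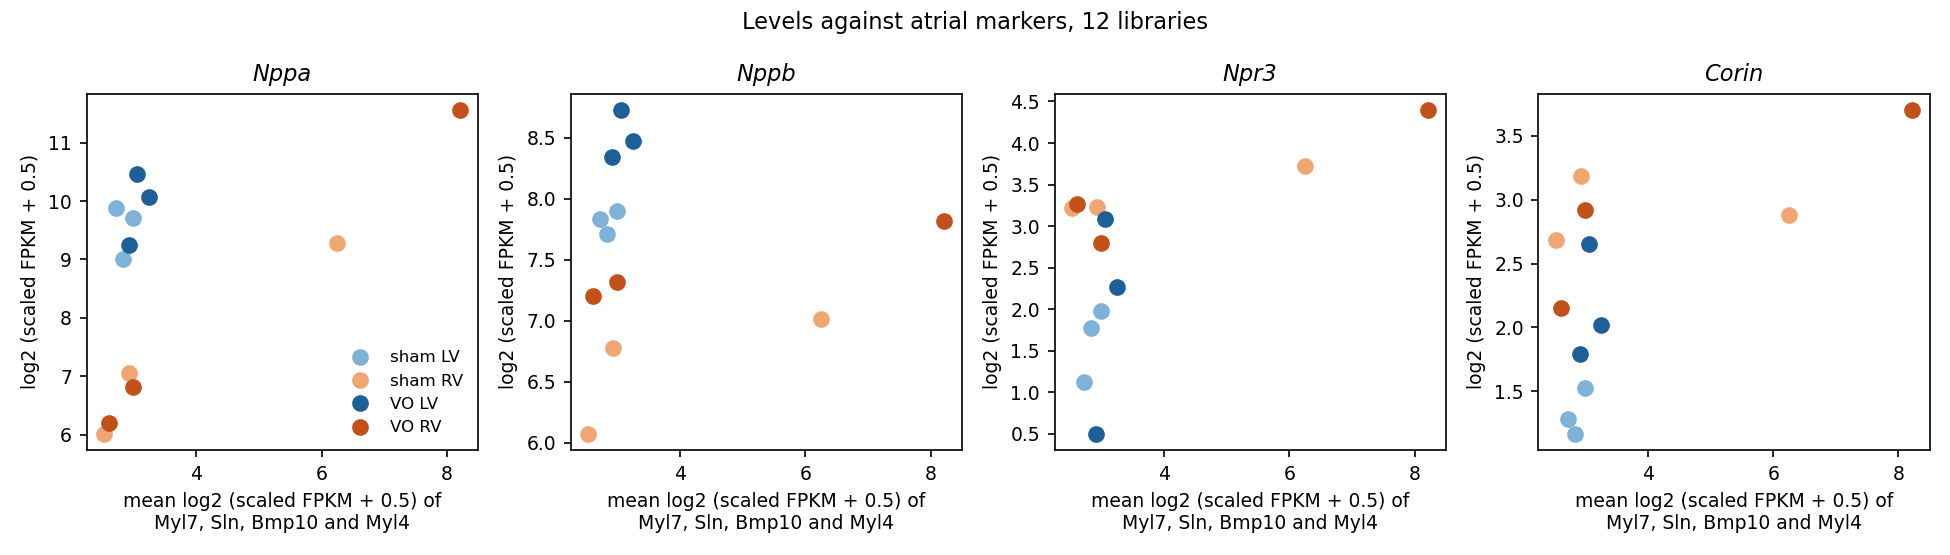
log2 level of 4 genes in each of the 12 libraries against the mean log2 level of 4 atrial markers (Sln, Myl4, Myl7 and Bmp10). The 2 RV libraries at the right were the highest RV libraries for Nppa, Nppb was below every VO LV library in both, and VO RV replicate 2 had the highest Npr3 and Corin of all libraries.

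The ratio of Nppa to Nppb in a library does not depend on how that library was scaled. It was 2.46, 3.52 and 4.15 in sham LV and 3.01, 1.88 and 3.33 in VO LV, so ANP transcript was more abundant than BNP transcript in every LV library. In the RV it was 4.83, 0.956 and 1.22 in sham and 0.705, 13.4 and 0.497 in VO. The 2 atrial-rich libraries had the highest ratios of all 12, and the other 4 RV libraries lay below the lowest LV library. The mean log2 ratio was 1.72 ± 0.39 (SD, n = 3) in sham LV and 0.83 ± 1.26 in sham RV (exact two-sided permutation p = 0.4), and 1.41 ± 0.44 in VO LV and 0.75 ± 2.61 in VO RV (exact permutation p = 0.8).

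**Figure D4:**
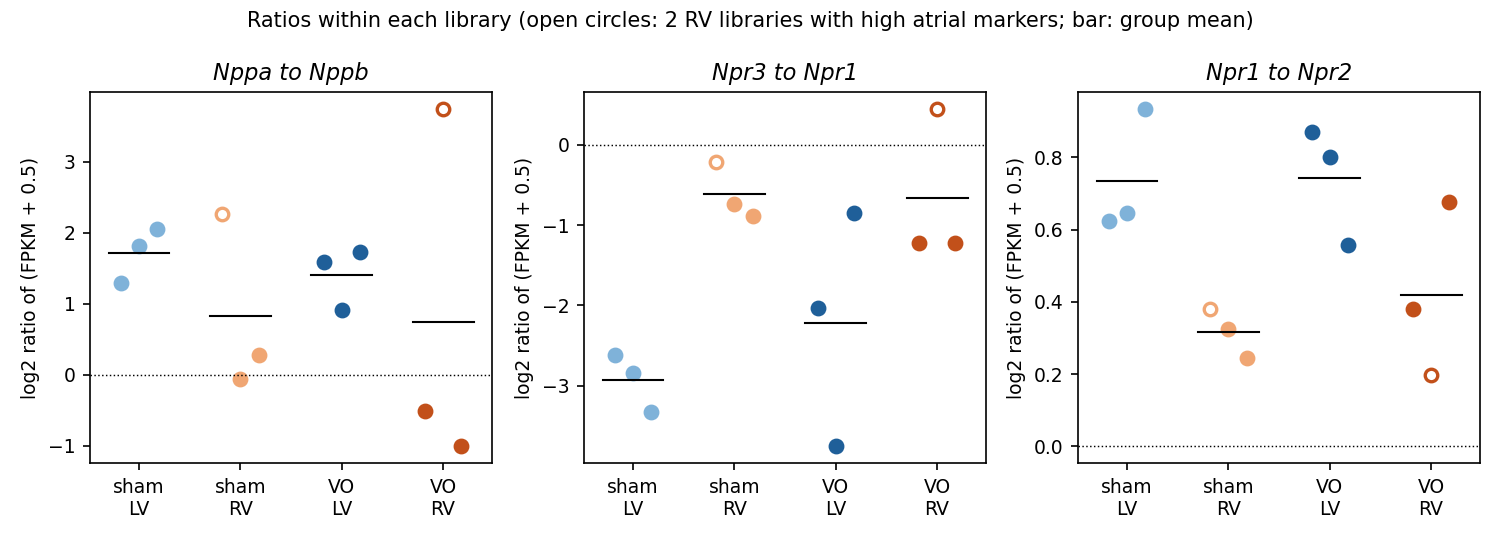
log2 ratio of 2 genes within each library, by group, with the group mean as a bar and open circles for the 2 atrial-rich RV libraries. The ratio of Npr3 to Npr1 did not overlap between sham LV and sham RV, and the 2 highest Nppa to Nppb ratios belonged to the atrial-rich libraries.

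Nppc was the least abundant peptide gene and had its highest values in the RV. It had 5, 10 and 1 reads in sham LV and 12, 3 and 8 reads in VO LV, against 24, 20 and 7 reads in sham RV and 31, 47 and 43 reads in VO RV. In FPKM, the means were 0.331 ± 0.267 (SD, n = 3) in sham LV, 0.455 ± 0.275 in VO LV, 1.09 ± 0.544 in sham RV and 2.39 ± 0.304 in VO RV, and the VO RV libraries lay above all other libraries. Nppc was lower in VO LV than in VO RV by a log2 fold change of −1.63 (SE 0.33, limma adjusted p = 0.216) and higher in VO RV than in sham RV by 0.93 (0.33, limma adjusted p = 0.555), and it was called in neither. At these counts, adding 0.5 FPKM before the log understates the change, and with 0.1 FPKM added these were −2.30 and 1.197. Nppc (chr9:93731436-93735636, minus strand) overlaps Dis3l2, which lies on the other strand. The counting is not stated to use strand, and without strand the reads of the 2 genes cannot be told apart where they overlap. Dis3l2 was 7.25 to 9.29 FPKM in all libraries, with a log2 difference of −0.0078 between VO LV and VO RV.

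Corin, the protease that activates ANP, was lower in sham LV than in any other group. In sham hearts it was 1.75, 2.395 and 1.95 FPKM in the LV and 6.92, 5.95 and 8.66 FPKM in the RV. In VO hearts it was 3.57, 2.97 and 5.83 FPKM in the LV and 7.08, 12.6 and 3.97 FPKM in the RV. Every sham LV library lay below all 9 others. Between the sham ventricles, Corin was 3.02-fold lower on the left (log2 fold change −1.59, SE 0.34, limma adjusted p = 0.0364), the second member called in that comparison, and it was higher in VO LV than in sham LV by 0.83 (SE 0.34, limma adjusted p = 0.172). The sham call was kept in the 4 fits that left out VO LV replicate 3 or 1 of the VO RV libraries and lost in the other 8. Those adjusted p values reached 0.132 from limma, without sham RV replicate 1, where the log2 fold change was −1.61. Over all 12 fits the log2 fold change was −1.46 to −1.71. Corin was also not called without both atrial-rich libraries (limma adjusted p = 0.109) or with all genes above 0 tested (limma adjusted p = 0.0703). Between VO LV and VO RV, where the groups overlapped, the difference was −0.77 (95% confidence interval −1.51 to −0.032), and it was −0.38 without the 2 atrial-rich libraries.

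Furin, the convertase of the BNP and CNP precursors, was the 1 member called in the difference of the VO responses between the ventricles, a call that few of the alternatives without 1 library kept. It was 32.2, 28.0 and 35.2 FPKM in sham LV and 40.7, 41.3 and 44.3 FPKM in VO LV, without overlap. In the RV it was 46.9, 38.54 and 41.4 FPKM in sham and 38.47, 36.9 and 33.1 FPKM in VO, so the VO libraries lay below the sham libraries, the nearest 2 almost at the same level. The log2 fold change was 0.41 (SE 0.11, limma adjusted p = 0.0714) in the LV and −0.22 (0.11, limma adjusted p = 0.605) in the RV. Between LV and RV, Furin differed by −0.41 in sham (limma adjusted p = 0.0537) and 0.22 under VO (limma adjusted p = 0.468), without overlap in either. The same sham libraries enter the difference between the responses, which therefore also contains this sham difference. The difference between the responses was 0.62 (SE 0.15, limma adjusted p = 0.0440) and was called, the 1 of 8 members, with 4.19% of all tested genes called in that comparison. At the unadjusted p, 2 members passed, against 23.1%, Furin and Npr1 (−0.54, 95% confidence interval −1.05 to −0.034, limma adjusted p = 0.172). The call was kept in 3 of 12 fits without 1 library (those without sham LV replicate 3, VO RV replicate 1 or VO RV replicate 2), and the difference was 0.54 to 0.70 in all of them. With the Y-linked covariate it was 0.58 (limma adjusted p = 0.0674), without both atrial-rich libraries 0.57 (limma adjusted p = 0.0969), and with all genes above 0 tested the limma adjusted p was 0.0721.

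The receptor that clears the peptides, Npr3, was the receptor with the largest difference between the ventricles. In sham hearts it was 2.93, 3.47 and 1.70 FPKM in the LV and 12.7, 8.86 and 8.96 FPKM in the RV, with no overlap. Under VO it was 4.33, 0.914 and 8.06 FPKM in the LV and 6.47, 20.7 and 9.17 FPKM in the RV, where 1 LV library reached above the lowest RV library. The highest value of each RV group, 12.7 and 20.7 FPKM, was that of its atrial-rich library, and without these the RV means were 8.91 FPKM in sham and 7.82 FPKM in VO. The sham difference was −1.76 (SE 0.57, limma adjusted p = 0.0900) and the VO difference −1.54 (0.57, limma adjusted p = 0.358). Without both atrial-rich libraries these were −1.60 and −1.08. Leaving out 1 library moved the VO difference between −0.81 (without VO LV replicate 2) and −2.10 (without VO LV replicate 3). VO LV, with an SD of 3.57 FPKM around a mean of 4.43, had the largest spread relative to its mean of the groups, and Npr3 was not called in any comparison. Npr3 is known as a gene of the endocardium, and the 3 endocardial markers found in the table summed to 9.71 to 11.2 FPKM in sham LV and 16.2 to 20.5 FPKM in sham RV, and to 8.59 to 13.5 and 16.1 to 33.4 FPKM in VO LV and VO RV. The upper ends of both RV ranges, 20.5 and 33.4 FPKM, were the atrial-rich libraries, and the other 4 RV libraries still lay above every LV library. Most of each sum was Cdh11, which mesenchymal cells also express, and Plvap alone overlapped between the ventricles, with 3.28 FPKM in VO RV replicate 1 against 4.17 FPKM in VO LV replicate 3 and 3.47 FPKM in sham LV replicate 2. In whole tissue, more cells of a type and more RNA per cell cannot be told apart, and the part of endocardial content in the Npr3 values was not tested.

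Neither of the signalling receptors was called in any comparison. Npr1, the receptor of ANP and BNP, was 20.5, 28.1 and 21.6 FPKM in sham LV and 14.9, 15.1 and 17.04 FPKM in sham RV, without overlap (log2 difference 0.55, SE 0.16, limma adjusted p = 0.0737). It was 19.3, 18.6 and 14.9 FPKM in VO LV and 15.7, 14.99 and 22.1 FPKM in VO RV, a difference of 0.010 (95% confidence interval −0.35 to 0.37). The sham difference was called in 1 of the 12 fits without 1 library, the one without VO RV replicate 3 (limma adjusted p = 0.0403). Endothelial cells are known to carry Npr1, and their 5 markers found in the table summed to 348 to 375 FPKM in the LV and 256 to 279 FPKM in the RV of sham hearts, and to 294 to 323 and 253 to 312 FPKM in those with VO. Their part in the Npr1 values was not tested.

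Npr2, the CNP receptor, was 13.1, 17.8 and 11.1 FPKM in the LV and 11.3, 11.96 and 14.3 FPKM in the RV of sham hearts. With VO it was 10.3, 10.5 and 9.96 FPKM in the LV and 11.98, 13.002 and 13.7 FPKM in the RV. The 3 VO LV libraries lay below all others and close together (10.2 ± 0.262 FPKM, SD, n = 3). The LV response was −0.40 (SE 0.15, limma adjusted p = 0.144) and the RV response 0.046 (95% confidence interval −0.28 to 0.37). Over the 12 fits without 1 library, the LV response was −0.55 to −0.22, with the highest limma adjusted p (0.405) without sham LV replicate 2. Between the ventricles the difference was 0.13 in sham (95% confidence interval −0.19 to 0.46) and −0.31 under VO (−0.64 to 0.011).

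Relative to Npr1, the clearance receptor was scarcer in sham LV than in sham RV. The ratio of Npr3 to Npr1 was 0.143, 0.124 and 0.0784 in sham LV and 0.858, 0.587 and 0.526 in sham RV, and the log2 ratios, −2.93 ± 0.37 and −0.61 ± 0.36 (SD, n = 3), did not overlap (exact two-sided permutation p = 0.1, the smallest possible). Under VO the ratio was 0.224, 0.0491 and 0.541 in the LV and 0.411, 1.38 and 0.415 in the RV, and the groups overlapped (exact permutation p = 0.3). The highest RV ratios, 0.858 and 1.38, were those of the atrial-rich libraries, and the other 2 sham RV ratios, 0.587 and 0.526, also lay above every sham LV ratio. The ratio of Npr1 to Npr2 was above 1 in every library, 1.56 to 1.95 in sham LV and 1.19 to 1.31 in sham RV, again without overlap (exact permutation p = 0.1). Under VO it was 1.497 to 1.87 in the LV and 1.15 to 1.62 in the RV, and the groups overlapped (exact permutation p = 0.2). Over the 4 comparisons between groups, 5, 5, 3 and 4 of the 8 members did not overlap (sham LV against sham RV, VO LV against sham LV, VO RV against sham RV, and VO LV against VO RV), against 32.2%, 32.4%, 12.5% and 16.1% of all tested genes. Between VO LV and VO RV, 0 of 8 members and 0.00719% of all genes were called, with 4 members at the unadjusted p against 7.4% of all genes, and voom called 0 members.

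Of 20 listed genes that make, degrade or respond to cyclic GMP, the second messenger of Npr1 and Npr2, 16 were tested. The cyclic GMP kinases were not among the 16, since Prkg1 was not found by that symbol and Prkg2 had too low a mean. Between the sham ventricles 2 of the 16 were called, against 3.86% of all tested genes. One was called higher in the LV, Pde2a, a phosphodiesterase that cyclic GMP activates (log2 fold change 0.38, limma adjusted p = 0.0455). One was called lower, Rgs2, a G protein regulator (−0.85, limma adjusted p = 0.0407). The median of the 16 was 0.15, beside 0.012 over all tested genes. None of them was called in response to VO in either ventricle, by limma with adjustment over all genes, and at the unadjusted p 1 passed in the LV, Pde3a (0.62), a phosphodiesterase that cyclic GMP inhibits, and 0 in the RV, against 15.7% and 4.91% of all genes. Of 14 genes of peptide processing and removal, 10 were tested and none was called in any comparison. The smallest p values in the LV response were those of Pam (0.68, limma adjusted p = 0.132), which amidates peptides, Ide (0.33, limma adjusted p = 0.151), a protease that degrades insulin and natriuretic peptides, and Galnt1 (0.42, limma adjusted p = 0.192), which adds sugars to proteins such as the BNP precursor.

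Of 24 transcription factors known at the Nppa and Nppb promoters, all tested, 7 were called with a higher response to VO in the LV than in the RV (3.46% of all tested genes were called in that direction) and 0 with a lower one (0.733%). The 5 with the smallest adjusted p were Hand1 (1.59), Myocd (1.38), Srf (0.93), Mef2d (1.11) and Tead1 (1.59), with adjusted p values from 0.0249 to 0.0449 from limma. For Tead1, which binds CATTCC, the LV response was 0.92 and the RV response −0.66, and for Srf, the serum response factor, 0.69 and −0.24. The median difference of the 24 factors was 0.46, beside −0.039 over all genes, and the difference of Nppb itself was −0.13. That of Nppa was −0.36 with all libraries and 0.42 without the 2 atrial-rich libraries, and it ranged from −1.36 to 1.33 when single libraries were left out. None of the 24 was called in the response of either ventricle by limma, against 0.0935% and 0% of all genes. At the unadjusted p 12 passed in the LV (10 higher) and 4 in the RV (all lower), against 15.7% and 4.91% of all genes.

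Between the sham ventricles, Srf (−0.73), Gata4 (−0.77), Myocd (−0.85) and Mef2d (−0.67) were called lower in the LV, where Nppb was higher. Hand1, a factor of the LV chamber, was called higher there (1.04, limma adjusted p = 0.0319). Of all tested genes, 2.35% were called lower and 1.51% higher. These calls and those of the difference of the responses use the same sham libraries, so they are not separate results. For Srf the means were 38.7 FPKM in sham LV, 63.4 in VO LV, 64.5 in sham RV and 54.5 in VO RV. Hand1 was the 1 gene of the whole table called between VO LV and VO RV (2.64, limma adjusted p = 0.000171), with group means of 2.72 (sham) and 4.67 FPKM (VO) in the LV and 1.05 and 0.326 FPKM in the RV. It followed the same order of ventricles as Nppb but was lower in VO RV than in sham RV (−0.89, limma adjusted p = 0.482), where Nppb was higher.

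Of 12 load genes of ventricular muscle, 11 were tested, and 3 were called with a higher response in the LV than in the RV, against 3.46% of all tested genes. They were Myh7, the slow myosin heavy chain (1.18, limma adjusted p = 0.0249), Nrap (0.86) and Xirp1 (1.24), both of the sarcomere and its junctions. Myh7 had means of 823 FPKM in sham LV, 1126 in VO LV, 1133 in sham RV and 681 in VO RV. Its response was 0.45 (limma adjusted p = 0.0888) in the LV and −0.73 (limma adjusted p = 0.366) in the RV, in contrast to Nppb, whose values were higher with VO in both. The calls of these comparisons rested on few libraries. Over the whole table, 583 genes were called for the difference of the responses with all libraries, and 0 to 4 without sham LV replicate 1 or 2, sham RV replicate 1 or 2, or VO LV replicate 2 or 3. It was 239 without VO LV replicate 1, 110 without VO RV replicate 3, and 1004 and 924 without VO RV replicates 1 and 2. Between the sham ventricles, 537 genes were called, and 0 to 5 without sham LV replicate 1 or 2, sham RV replicate 1 or 2, or VO LV replicate 2. It was 872 without VO RV replicate 3, 185 without sham RV replicate 3 and 173 without VO LV replicate 1.

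**Figure D5:**
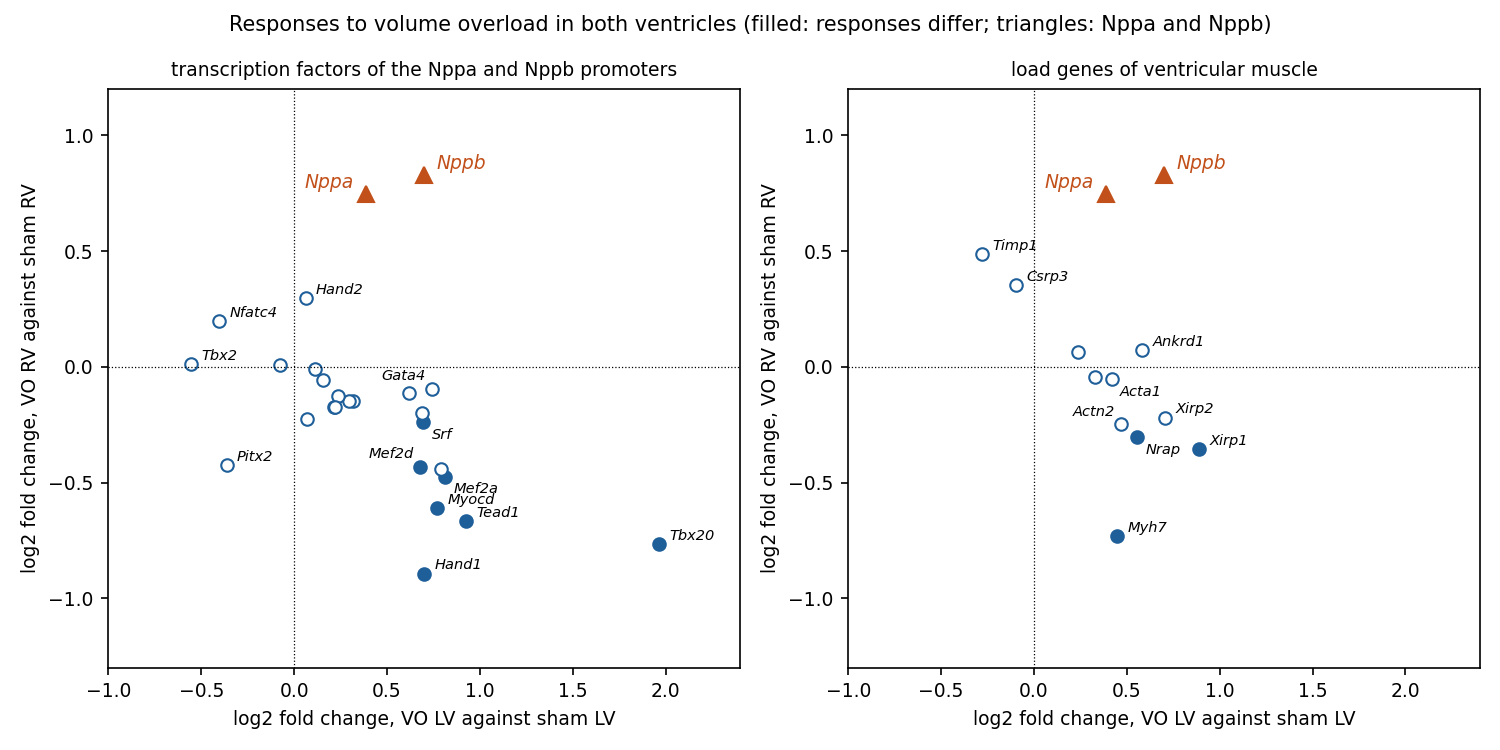
log2 fold change in response to VO in the RV against that in the LV for 24 transcription factors and 11 load genes, with filled circles for genes whose responses were called different and triangles for Nppa and Nppb. Nppb lies at positive values in both ventricles, as does Nppa, whose RV value is −0.024 without the 2 atrial-rich libraries, and the 7 factors and 3 load genes with filled circles are at positive values in the LV and negative values in the RV.

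Among all genes with a mean of at least 1 FPKM, those most like each member over the 12 libraries were found by Pearson's r of log2 levels, as a description with no test. The libraries are 3 from each of 4 groups, so r contains the group differences. Nppb was most like Plin3 (r = 0.917), a lipid droplet protein, Aif1l (0.871) and Exoc3l4 (0.866), and Nppa was most like Lrrc16a (0.876), Tcaf1 (0.855) and Ifnar1 (0.852). Npr1 was most like Tgfb1 (0.969), Rasip1 (0.967), a gene of blood vessel endothelium, and Hsd3b7 (0.962), and Npr3 was most like Pkhd1l1 (0.961), Fam171b (0.949) and Ackr4 (0.940). Corin was most like Rgs2 (0.936), Ckap4 and Spsb1, Furin like Zfp251 (0.9752), Zer1 and Adam19, Nppc like Slc43a3 (0.928), Agr2 and Ctnnbl1, and Npr2 like Pcf11 (0.928), Gng10 and Fbxl19. For each of these pairs r was 0.809 or more without the 2 atrial-rich libraries. Among the members, r was 0.839 between Npr3 and Corin, −0.815 between Npr1 and Furin and 0.758 between Nppa and Nppb, and the last was 0.890 in the 10 libraries without high atrial markers.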

How the data were processed

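RNA-seq of LV and RV free walls was analysed from a single table of FPKM. The authors filtered reads, aligned them with HISAT2 2.0.5, counted them per gene with featureCounts 1.5.0-p3 and deposited FPKM per library. Genome build, annotation and strand setting are not given in the sources used here. Values were whole multiples of 1 read (100% under 200 reads, tolerance 0.02), so reads could be recovered.

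Each library was scaled by its median-ratio size factor (1.00 to 1.01), and levels are log2 of FPKM plus 0.5, a scale that understates changes of low genes. limma 3.58.1 (R 4.3.3, eBayes with a trend) was fitted to all 4 groups together for the 13910 genes whose mean FPKM reached 0.5, so the groups share 1 estimate of the spread. Benjamini-Hochberg adjustment ran over all tested genes. Calls used the thresholds of the study, an adjusted p under 0.05 plus a fold change over 1.3. Exact two-sided permutation tests used deposited FPKM (log2 of FPKM plus 0.5 for ratios and averaged comparisons), and for 3 against 3 cannot go below 0.1. The limma fit was tested on simulated data. The deposited unit was FPKM, so limma on log2 levels was the main test, with voom on recovered reads as an alternative, and DESeq2, which the authors had used, was not applied.

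The rule for names took all members, the 3 genes most like each, neighbours within 100 kb, and listed genes called in a comparison (up to 5 per list by adjusted p, otherwise the 3 with the smallest p). Hand1, Tead1, Srf and Myh7 were described beyond this rule after their values were seen. The members and lists were chosen with earlier results of these data known. Promoter windows came from RefSeq, build GRCr8, for 6 of the 8 members. Alternatives were FPKM as deposited, quantile normalization, pseudocounts of 1 and 0.1, other filters and thresholds, separate fits, the replicate number as a block, robust and weighted fits, voom on recovered reads, atrial and Y-linked covariates, and leaving out libraries. The 2 averaged comparisons, and the ratios without the atrial-rich libraries, were added after the data were seen.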

Additional observations from a re-analysis of the deposited data

Results flagged for a closer look

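Furin, the convertase of the BNP and CNP precursors, was the 1 member called in the test of the difference between the VO responses of the 2 ventricles, with an interaction of 0.62 on the log2 scale (LV minus RV, SE 0.15, limma adjusted p = 0.0440). All 3 VO libraries were higher than the 3 sham libraries in the LV and all 3 were lower in the RV, where the nearest libraries were 38.47 (VO) and 38.54 FPKM (sham). The call was kept in 3 of the 12 fits without 1 library, with a limma adjusted p of up to 0.120, without VO LV replicate 3. It was lost with the Y-linked covariate, without both atrial-rich libraries, with all genes above 0 tested and with either replicate block. The group means were 31.8 FPKM in sham LV, 42.1 in VO LV, 42.3 in sham RV and 36.1 in VO RV. Groups of 3 libraries were too small for the test of single outlying libraries.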

How the results depend on the processing

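The count of members called between the sham ventricles (2) was 0 with all genes above 0 tested and without both atrial-rich libraries, 3 with voom, quantile normalization, a separate fit or the atrial covariate, 4 with array weights, and 0 to 4 without single libraries. The difference of the responses (1) was 0 with all genes above 0, the Y-linked covariate or without both atrial-rich libraries, and 0 to 1 without single libraries. The averaged LV against RV count (1) was 0 with all genes above 0, 2 with the atrial covariate or without both atrial-rich libraries, and 0 to 2 without single libraries. VO LV against VO RV was 1 with the atrial covariate. At the unadjusted p the 7 counts were 6 (sham), 5 (VO LV), 2 (VO RV), 4 (VO LV against VO RV), 2 (difference), 5 (averaged LV against RV) and 2 (averaged VO). The cause was not tested.

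The labels do not say that a replicate number marks 1 rat, and the libraries were not treated as paired, since r of the deviations of same-numbered libraries was −0.22 to 0.12. It was 0.045, 0.038 and 0.12 between the sham LV and sham RV libraries of the same number, so pairing there is unresolved. With the replicate block, and with a block within operation, the counts in the sham comparison, the difference and the averaged LV against RV were 0, and no other count changed. Both blocks thus ended the sham calls of Nppb (limma adjusted p = 0.0741 and 0.147) and Corin (0.0767 and 0.149), the Furin difference (0.0757 and 0.149) and the averaged call of Nppb (0.105 and 0.180). The block within operation gives no response to VO, and separate fits give no difference of responses and no average.

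Direction changed only for uncalled values. Npr1 between VO LV and VO RV was −0.0044 with quantile normalization, −0.062 with the atrial covariate and −0.088 without both atrial-rich libraries. Corin in the RV response was −0.00046 with a pseudocount of 0.1, −0.036 with array weights, −0.10 with the atrial covariate, −0.17 with the Y-linked covariate and −0.40 without both atrial-rich libraries. Npr3 in the RV response was −0.063 with the atrial covariate and −0.20 without both libraries, where Nppa was −0.024 and Npr2 −0.031. Nppa in the LV response was −0.25 with the Y-linked covariate, and its difference of responses was 0.066 with the atrial covariate and 0.42 without both libraries. Leaving out single libraries gave ranges across 0 for the difference of responses of Nppa (−1.36 to 1.33), Nppb (−0.32 to 0.15) and Npr3 (−0.34 to 0.96), for the RV response of Nppa (−0.94 to 1.75), Npr1 (−0.019 to 0.25), Npr2 (−0.022 to 0.14), Npr3 (−0.36 to 0.44) and Corin (−0.38 to 0.39), for the LV response of Nppc (−0.035 to 0.44) and Npr3 (−0.24 to 1.05), for Npr2 between the sham ventricles (−0.047 to 0.28), for Npr1 between VO LV and VO RV (−0.088 to 0.18), and for the averaged VO response of Nppa (−0.28 to 1.07) and Npr3 (−0.075 to 0.57). Depth limits Nppc, with 1 to 47 reads per library.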

Other observations

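Clcn6, Plod1 and Agtrap lie within 100 kb of Nppa and Nppb on chromosome 5, and none of these 3 was called in any of the 5 comparisons by limma (smallest adjusted p 0.0688, Plod1 between the sham ventricles). Clcn6, a chloride transporter 2110 bases beyond Nppa on the minus strand, was 4.36 to 6.91 FPKM in the 12 libraries, with log2 responses to VO of −0.28 in the LV and 0.075 in the RV. Plod1, a collagen lysyl hydroxylase, was 35.6 to 47.7 FPKM, with −0.24 and 0.12. Agtrap, which binds the angiotensin receptor, was 4.24 to 5.77 FPKM, with 0.20 and −0.0067.

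Within 100 kb of the other members, 32 neighbours were tested. Between the sham ventricles 2 of them were called, against 3.86% of all tested genes, and in the difference of the VO responses 1 was called, against 4.19%. Spag8, which lies 81 bases from Npr2 on the other strand and had a mean of 0.560 FPKM, was higher in sham LV than in sham RV (log2 difference 0.97, limma adjusted p = 0.0356), and Sub1, a transcriptional coactivator near Npr3, was also higher there (0.46, limma adjusted p = 0.0364). Msmp, near Npr2, had a higher response to VO in the LV than in the RV (1.07, limma adjusted p = 0.0370).

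The libraries labelled VO LV replicate 3 and VO RV replicate 3 differed in the presence of Y-linked transcripts, so this replicate number does not name 1 rat. Same-numbered LV and RV libraries matched in this for the other 5 numbers, which does not show that they came from the same rat.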
